A study of Mus musculus with 6 samples.

Results

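The genes of the MHC class II presentation pathway were followed in Paneth cells (PCs), which sit at the crypt base of the small intestine and secrete antimicrobial granules, 15 h after injection of tumour necrosis factor (TNF) or of phosphate-buffered saline (PBS, the control). The 8 genes were taken by name and looked up by Ensembl identifier among 55414 genes of the count table: the transactivator Ciita, the chains H2-Aa, H2-Ab1 and H2-Eb1, the invariant chain Cd74, and the peptide exchange genes H2-DMa, H2-DMb1 and H2-DMb2. There were 3 PBS and 3 TNF libraries of sorted small intestinal PCs, each from a different C57BL/6J mouse, and both groups were knockouts of Ifnar1, a gene for 1 chain of the receptor of type I interferons. The labels gave no age, sex, TNF dose or sorting gate, and no library of a mouse with Ifnar1 was compared. The comparison asks how TNF affects PC transcripts in mice without this receptor.

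MHC class II molecules present peptides from endosomes to CD4+ T cells. They are made constitutively by professional antigen-presenting cells such as dendritic cells and B cells, while epithelial cells of the intestine, crypt stem cells among them, can make them as well, above all after exposure to interferon-gamma. An alpha and a beta chain assemble on the invariant chain CD74, which fills the groove until endosomal proteases trim it, and H2-DM then exchanges the remaining fragment for a peptide. The co-activator CIITA does not bind DNA itself but docks on the factors that occupy the X and Y boxes of class II promoters, namely the RFX complex, CREB and NF-Y.

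Transcripts of 7 of the 8 genes were present in every library, and H2-DMb2 had no count in any. None of the 7 differed between TNF and PBS at an adjusted p under 0.05 (edgeR), a threshold that 0.0% of the 13026 tested genes reached. Cd74 was the only member whose 3 TNF values all lay above the 3 PBS values, as in 9.07% of tested genes. In TNF replicates 2 and 3, Ciita, H2-Eb1 and H2-DMa were far below every PBS value, whereas TNF replicate 1 was within the PBS range for Ciita and above it for H2-Eb1 and H2-DMa. Both of these TNF libraries lay below all PBS values in 22.0% of tested genes. Ciita, H2-Eb1 and H2-DMa passed the threshold downward with edgeR when TNF replicate 1 was left out, where 5.4% of all genes passed lower. With limma-voom in that subset only H2-Eb1 did (Ciita adjusted p 0.0792, H2-DMa 0.0596). Class I presentation genes were higher in the same 2 libraries.

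The promoters of class II genes are described first, since CIITA docks on factors that occupy X and Y boxes in such promoters. The table of RefSeq promoters (GRCm38.p6, 250 bases before to 50 after each start site) held 5 of the 8 members, and H2-Ab1, Cd74 and Ciita were not matched. The 5 stretches of 55 bases shown here were chosen to set expressed genes (H2-Aa, H2-Eb1) beside class II genes with no count (H2-DMb2, H2-Eb2, H2-Ob). Capitals mark the Y box letters ATTGG at the right and, at the left, the match closest to the X box letters (AG and AC and ATG, with 2 free bases in each gap), or for H2-Aa the cyclic AMP response element TGACGTCA.
H2-Aa, chr17:34287862-34287916, minus strand: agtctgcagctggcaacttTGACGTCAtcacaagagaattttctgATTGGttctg
H2-Eb1, chr17:34305763-34305817, plus strand: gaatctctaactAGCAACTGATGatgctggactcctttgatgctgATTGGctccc
H2-DMb2, chr17:34145114-34145168, plus strand: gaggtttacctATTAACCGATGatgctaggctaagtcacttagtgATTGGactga
H2-Eb2, chr17:34325530-34325584, plus strand: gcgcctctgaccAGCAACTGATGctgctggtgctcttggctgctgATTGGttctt
H2-Ob, chr17:34238803-34238857, plus strand: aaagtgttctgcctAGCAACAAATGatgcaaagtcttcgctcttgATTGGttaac

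On either strand, ATTGG occurred in 37.4% of 32851 promoters of this length, the X box letters in 3.09% and TGACGTCA in 1.79%. None of the 3 motifs contains another. The X box letters followed 30 to 36 bases later by ATTGG on the same strand, a distance set after the class II promoters had been read, were found in 7 promoters, or 0.0213%. Of these 7, 4 were class II genes: H2-Eb1, H2-DMb1, H2-Eb2 and H2-Ob. H2-Eb1 had the X box letters at position -92 and the Y box letters at -59 from the start site, and H2-DMb1 had them at -95 and -61. H2-DMb2 differed from the searched X box letters by 1 substitution, G2T, counted from 1 at the 5′ end of the motif, with its Y box letters at -90. H2-Aa had the response element at -74 and the Y box letters at -48. Of the 2 start sites listed for H2-DMa, 1 window held none of these letters and the other held ATTGG alone, at -198. A match describes letters in a window and does not show that a factor was bound. H2-Oa, also with no count, had its X and Y box letters 98 bases apart, outside the searched distance. The pair at that distance was thus in H2-Eb1 and H2-DMb1 but not H2-Aa or H2-DMa among counted genes, and in H2-Eb2 and H2-Ob but not H2-DMb2 or H2-Oa among uncounted ones.

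Total counts ranged from 12747484 to 17039511 per library, and class II genes took between 0.0155% and 0.0225% of them. TNF replicate 1 stood apart from the other TNF libraries. Across tested genes its log2 expression correlated with the PBS libraries at 0.937 to 0.945 (Pearson) and with TNF replicates 2 and 3 at 0.883 to 0.884, while the latter pair correlated at 0.954. It was kept as labelled, and results of the tested members are given with and without it. For some genes of the other lists, only counts past the threshold are given without it. Leaving it out raised the share of all genes past the threshold from 0.0% to 14.5% (9.1% higher and 5.4% lower in TNF). PC products dominated each library, with Lyz1, the lysozyme of PC granules, at 134153 to 226165 CPM (counts per 1000000, on library sizes scaled between libraries). Ifnar1 was counted in all libraries at 5.18 to 12.7 CPM, but a gene-level count without a wild-type library checks nothing about the knockout. Because these are bulk samples, fewer cells of a type and less RNA per cell cannot be told apart.

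Per kilobase of annotated exon, the 7 counted members spanned a wide range of levels in PBS. Cd74 was the highest at 32.2 ± 1.70 CPM per kb (SD, n = 3), above 96.8% of the tested genes. H2-Ab1 followed at 17.9 ± 2.07, H2-Eb1 at 11.3 ± 1.35 and H2-Aa at 5.47 ± 0.284 CPM per kb. H2-DMb1 had 4.05 ± 1.08, H2-DMa 1.22 ± 0.191 and Ciita 0.332 ± 0.126 CPM per kb, the last above only 9.65% of tested genes. The lowest H2-Aa library (5.29) was level with the highest H2-DMb1 library (5.29), and the other steps in this order were wider than the spread of the 3 libraries. The TNF means had the same order, from 35.96 ± 2.37 for Cd74 to 0.135 ± 0.131 for Ciita. Their SD ranges overlapped between neighbours from H2-Ab1 through H2-Eb1 and H2-Aa to H2-DMb1, and between H2-DMa and Ciita. The lengths take in all annotated exons of a gene and enter this order. Before division by length, H2-DMb1 (1681 bases) and H2-DMa (4331 bases) had 6.81 ± 1.82 and 5.28 ± 0.826 CPM in PBS, with overlapping libraries.

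**Figure D1:**
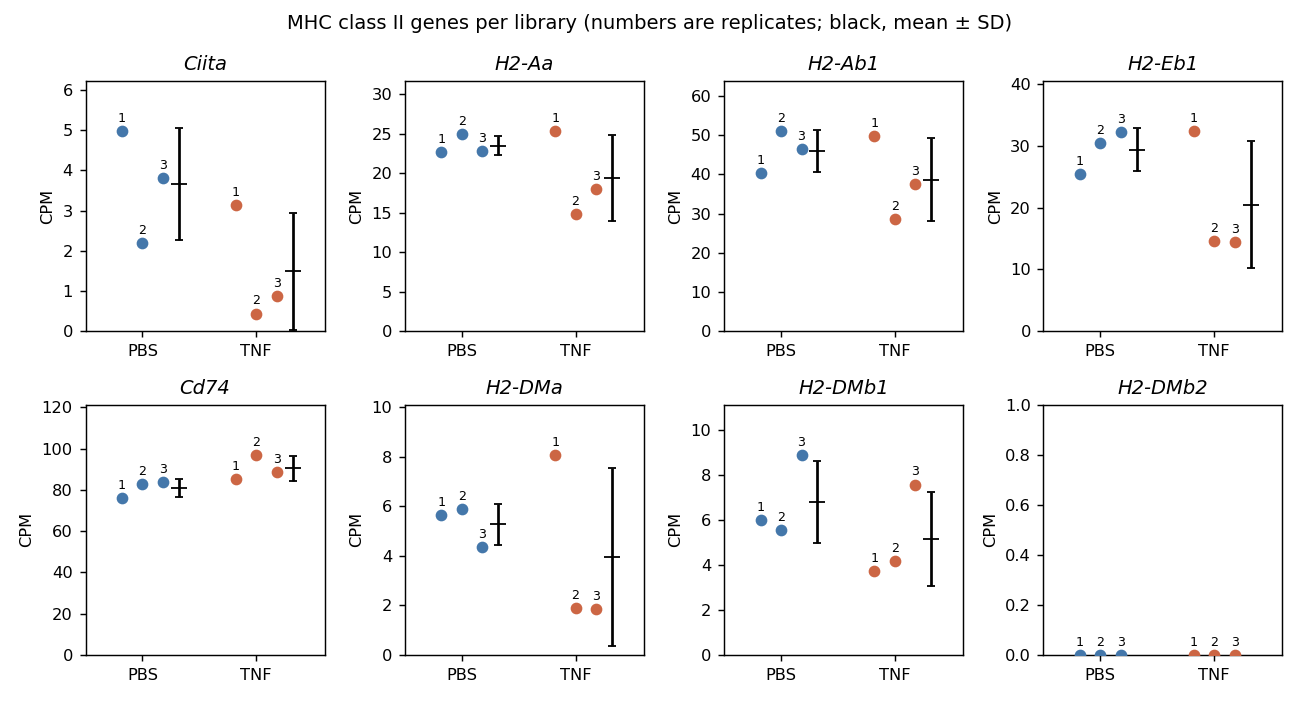
Level of each class II gene in each library, in CPM on TMM-scaled library sizes. Numbered points are replicates of the PBS (left) and TNF (right) groups and black marks give the mean ± SD. TNF replicates 2 and 3 lie under all PBS libraries for 5 genes, TNF replicate 1 does not, and H2-DMb2 is at 0 throughout.

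Ciita (ENSMUSG00000022504, GRCm39 chromosome 16, 10297923 to 10347694), the transactivator, had 4.98, 2.203 and 3.82 CPM after PBS (replicates 1 to 3) and 3.14, 0.440 and 0.886 CPM after TNF. The groups overlapped through TNF replicate 1. The low values rest on few reads, since TNF replicates 2 and 3 held 9 and 11 counts against 33 to 69 in PBS. The log2 fold change was -1.32 (standard error 0.73, edgeR adjusted p 0.490), the largest in size among the members. Without TNF replicate 1 it was -2.47 (SE 0.67, adjusted p 0.0299), that is 5.54-fold lower. Over all settings tried, the adjusted p ranged from 0.00354 to 0.922.

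The chain genes lie side by side on chromosome 17. H2-Ab1 (ENSMUSG00000073421, 34476663 to 34488393), the beta chain of the I-A molecule, had 40.5, 51.1 and 46.6 CPM after PBS and 49.7, 28.6 and 37.6 CPM after TNF. Its partner H2-Aa (ENSMUSG00000036594, 34493404 to 34506798) had 22.7, 24.9 and 22.9 CPM after PBS and 25.3, 14.8 and 17.96 CPM after TNF. For both chains TNF replicate 1 sat within or above the PBS values and the other TNF libraries below all of them. The log2 fold changes were -0.25 for H2-Ab1 (SE 0.24, edgeR adjusted p 0.699) and -0.28 for H2-Aa (SE 0.25, adjusted p 0.671). They were -0.46 (adjusted p 0.177) and -0.50 (0.144) without TNF replicate 1, so neither passed there.

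H2-Eb1 (ENSMUSG00000060586, 34504236 to 34535648), the beta chain of the I-E molecule, had 25.5, 30.4 and 32.3 CPM after PBS and 32.4, 14.5 and 14.5 CPM after TNF. TNF replicates 2 and 3 were thus close to each other and below every other library, with TNF replicate 1 level with the highest PBS library. The log2 fold change was -0.53 (standard error 0.33, edgeR adjusted p 0.541) over all libraries and -0.998 (SE 0.21, adjusted p 0.0102) without TNF replicate 1. It was also the 1 member that passed with limma-voom and sample weights (adjusted p 0.0225), and over all settings the adjusted p ranged from 7.29e-04 to 0.951. Mice of the C57BL/6 background carry a promoter deletion in H2-Ea, the alpha chain gene of I-E, and H2-Ea had no count in any library.

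Cd74 (ENSMUSG00000024610), which encodes the invariant chain, went the other way in sign. It had 76.0, 83.0 and 83.7 CPM after PBS and 85.5, 97.1 and 88.7 CPM after TNF. The groups did not overlap, but TNF replicate 1 and PBS replicate 3 were nearly level. TNF values above all PBS values were met in 9.07% of tested genes, and here in 1 of 7. The log2 fold change of 0.16 was smaller than its standard error of 0.19 (edgeR adjusted p 0.765), and the adjusted p did not fall below 0.474 under any setting. The ratio of Cd74 counts to the summed counts of H2-Aa, H2-Ab1 and H2-Eb1 does not depend on the scaling between libraries. It was 0.857, 0.780 and 0.823 in PBS and 0.796, 1.68 and 1.27 in TNF. Invariant chain transcripts exceeded those of the 3 chains combined only in TNF replicates 2 and 3 of these 6 libraries.

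H2-DMa and H2-DMb1 encode the chains of the peptide exchange molecule. H2-DMa (ENSMUSG00000037649, 34338515 to 34358958) had 5.63, 5.87 and 4.33 CPM after PBS and 8.07, 1.91 and 1.85 CPM after TNF, so that the highest and the 2 lowest of the 6 libraries were all TNF libraries. Its log2 fold change was -0.43 (standard error 0.58, edgeR adjusted p 0.799), and -1.47 (SE 0.43, adjusted p 0.0435) without TNF replicate 1, with a range of 0.0163 to 0.995 over all settings. H2-DMb1 (ENSMUSG00000079547, 34372046 to 34379204) had 5.99, 5.54 and 8.89 CPM after PBS and 3.74, 4.16 and 7.57 CPM after TNF. It did not separate TNF replicates 2 and 3 from the rest (log2 fold change -0.40, standard error 0.39, adjusted p 0.711), and was -0.21 (adjusted p 0.775) without TNF replicate 1. The 2 chains of H2-DM therefore did not have the same order of libraries.

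H2-DMb2 (ENSMUSG00000037548, 34362197 to 34370529), a close copy of H2-DMb1, had 0 counts in all 6 libraries, which allows up to 0.147 to 0.255 CPM by library, taking 3 counts as the limit. Of its transcript windows of 50 bases, 18.9% also occurred unchanged in H2-DMb1, and of windows of 100 bases 8.71% did. Most windows of these lengths thus had no exact match there, which does not measure how alike the transcripts are. Windows of the other members were not shared with any class II gene examined. H2-Oa and H2-Ob, which encode the inhibitor of H2-DM found in B cells, and the beta chain gene H2-Eb2 were likewise at 0 counts in all libraries. Together with H2-Ea, all 4 of the other class II region genes were therefore not detected. Exons of another gene on the opposite strand covered 16.95% of the H2-DMb1 exon bases, 11.8% of H2-DMa (Brd2), 9.55% of H2-Eb1, 5.73% of Ciita (Dexi) and 2.75% of H2-Aa. The use of strand in counting is not given in the sources used here. If strand was not used, reads of overlapping genes cannot be told apart there.

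**Figure D2:**
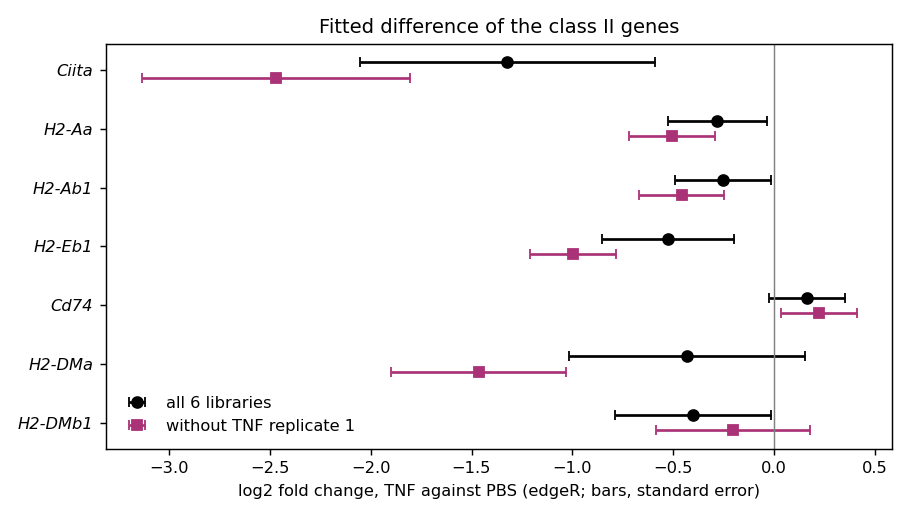
Fitted log2 fold change (horizontal axis) of the 7 tested class II genes in TNF against PBS, with all 6 libraries (black circles) and without TNF replicate 1 (purple squares). Bars are standard errors. All genes but Cd74 lie left of 0 in both fits, and Ciita, H2-DMa and H2-Eb1 move furthest when TNF replicate 1 is left out.

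As a group, 6 of the 7 tested members had a fitted value below 0 and 1 above, with a median log2 fold change of -0.40, where the median of all tested genes was 0.00. The group median was -0.50 without TNF replicate 1, -0.15 without TNF replicate 2 and -0.23 without TNF replicate 3. At an unadjusted p under 0.05, edgeR gave 0 of the 7 members, against 12.3% of all tested genes. DESeq2 gave 0 members past the adjusted threshold, against 1.86% of all genes (1.58% higher, 0.276% lower), and limma-voom also gave 0. With sample weights limma-voom gave 1 member, lower, against 11.5% of all genes (7.06% higher, 4.47% lower). Without TNF replicate 1, 3 of 7 passed, all lower, against 5.4% of all genes that passed lower. In that subset TNF values were below all PBS values for 5 of the 7 members, where 22.0% of tested genes showed this, and above all of them for 1, where 24.1% did. The sum over the 8 genes was 196 ± 12.4 CPM after PBS and 179 ± 24.9 CPM after TNF (SD, n = 3), a difference within the spread of the TNF libraries, of which replicate 1 was the highest of all 6 at 208 CPM and replicates 2 and 3 the lowest at 161 and 169 CPM.

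The factors that CIITA docks on were transcribed in all libraries. The RFX subunit genes Rfx5, Rfxap and Rfxank ranged from 2.79 to 8.94 CPM over the 6 libraries, with log2 fold changes of -0.22, 0.33 and 0.39 and edgeR adjusted p-values of 0.632 or more. Creb1 had 41.9 ± 3.85 CPM after PBS and 34.3 ± 11.6 CPM after TNF. Nfya, the DNA-contacting subunit of NF-Y, had 12.1, 17.1 and 15.9 CPM after PBS and 10.3, 6.80 and 5.07 CPM after TNF. Every TNF value lay under the lowest PBS value, as in 7.82% of tested genes (log2 fold change -1.03, standard error 0.31, adjusted p 0.293), and it passed without TNF replicate 1 (-1.31, adjusted p 0.0106). Nfyb and Nfyc had log2 fold changes of -0.38 and -0.41 and did not pass in either fit. Of the 7 factors, 0 passed with edgeR over all libraries and 1, lower, without TNF replicate 1, where 5.4% of all genes passed lower. Nfya also passed over all libraries with limma-voom and sample weights (adjusted p 0.0134), and Creb1 passed without TNF replicate 1 with DESeq2 (0.0442) but not edgeR (0.0735).

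Upstream of Ciita, the receptor genes for interferon-gamma had higher values in TNF. Ifngr1, the ligand-binding chain, had 30.2, 21.9 and 29.8 CPM after PBS and 42.2, 64.7 and 64.2 CPM after TNF (log2 fold change 1.07, standard error 0.24, edgeR adjusted p 0.270). Ifngr2, the signalling chain, had 32.2, 23.6 and 31.1 CPM after PBS and 37.8, 162 and 148 CPM after TNF (log2 fold change 2.00, standard error 0.47, adjusted p 0.270). In both genes the groups did not overlap, as in 9.07% of tested genes with TNF higher, and TNF replicate 1 was the TNF library nearest to PBS. Both passed upward without TNF replicate 1 (adjusted p 0.00209 and 4.11e-05). They also did with DESeq2 over all libraries (0.0184 and 0.00205), where 1.58% of all genes passed higher. Downstream of the receptor, Irf1, a direct activator of Ciita, had 36.8 ± 2.51 CPM after PBS and 33.3 ± 1.43 CPM after TNF. It did not pass in either fit, nor did Jak1, Jak2, Irf2 or Socs1. With edgeR the list of 8 thus gave 0 past the threshold over all libraries and 2 higher without TNF replicate 1, where 9.1% of all genes passed higher. In TNF replicates 2 and 3, 5 of the 8 lay above all PBS values and 0 below, where 24.1% and 22.0% of tested genes did. Among the 5 were Jak1 (144 and 166 CPM, 109 to 125 CPM after PBS) and Jak2 (48.9 and 50.6 CPM, 28.9 to 40.5 CPM after PBS).

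Endosomal processing genes lay higher in TNF for all 9 list members, with 6 of 9 at an unadjusted p under 0.05, against 8.25% of all tested genes higher at that level, and 0 past the adjusted threshold (edgeR). Ctsh, a cathepsin with aminopeptidase activity, had 28.3, 29.2 and 46.8 CPM after PBS and 74.8, 132 and 170 CPM after TNF (log2 fold change 1.85, standard error 0.34, adjusted p 0.270). Ctsl, a cathepsin that can trim the invariant chain in epithelial cells, had 30.6, 24.8 and 26.0 CPM after PBS and 33.1, 246 and 183 CPM after TNF (log2 fold change 2.50, standard error 0.58, adjusted p 0.270). The third gene is Sppl2a, the intramembrane protease that clears the N-terminal CD74 fragment. It had 225 ± 31.5 CPM after PBS and 413 ± 154 CPM after TNF (adjusted p 0.334). Without TNF replicate 1, 6 of the 9 genes passed, all higher, against 9.1% of all genes. Ctss, the cathepsin that trims the invariant chain in dendritic cells and B cells, was low, at 5.30 ± 0.534 CPM after PBS and 8.66 ± 1.27 CPM after TNF, and did not pass in that fit (adjusted p 0.132); it is named after its values were seen.

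Genes of class II turnover at the cell surface gave 0 of 5 tested past the threshold with edgeR and 1, lower, without TNF replicate 1, where 5.4% of all genes passed lower. That gene was Cd83, whose protein protects class II molecules from ubiquitination. It had 17.3, 13.3 and 11.6 CPM after PBS and 14.9, 0.881 and 0.966 CPM after TNF. Here too TNF replicate 1 was within the PBS range, and the fold was set by it: -1.36 (SE 0.90, edgeR adjusted p 0.566) with it and -3.91 (SE 0.37, adjusted p 8.12e-05) without. Over all libraries Cd83 also passed with sample weights (adjusted p 0.00948) and with no low-count filter (0.00992), but not with DESeq2 (0.672). Ap2a1, a subunit of the clathrin adaptor AP-2, had 21.2 ± 5.06 CPM after PBS and 29.5 ± 10.1 CPM after TNF (adjusted p 0.548, and 0.0468 with sample weights), and the lysosomal membrane gene Lamp1 had 199 ± 45.9 and 227 ± 32.3 CPM (adjusted p 0.793).

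Costimulatory genes, whose products deliver the second signal to T cells, were scarce. Cd86 had no count in any library, and Cd80 did not exceed 0.147 CPM. Icosl had 1.55 ± 0.321 CPM after PBS and 3.24 ± 0.864 CPM after TNF (log2 fold change 1.06, standard error 0.49, edgeR adjusted p 0.427), without overlap, as in 9.07% of tested genes with TNF higher. Cd274, which encodes the inhibitory ligand PD-L1, had 0.748 ± 0.341 and 1.36 ± 1.07 CPM (adjusted p 0.737). Cd40 had 0 counts in the 3 PBS libraries, which allows up to 0.200 to 0.220 CPM, and 0.255, 3.77 and 8.38 CPM in TNF replicates 1 to 3. It passed the filter on low counts only without TNF replicate 1, through the TNF libraries in which it was high, so its values are given as a description. Cd40 and the genes at or near 0 are named after their values were seen.

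CD74 also serves as a receptor for the cytokine MIF, together with CD44. Mif had 20.3, 10.2 and 12.0 CPM after PBS and 22.4, 33.0 and 28.2 CPM after TNF, without overlap, as in 9.07% of tested genes with TNF higher. Its log2 fold change was 0.98 (standard error 0.30, edgeR adjusted p 0.293), and Mif passed without TNF replicate 1 (1.13, adjusted p 0.0210). Its relative Ddt had 7.54 ± 0.953 CPM after PBS and 5.33 ± 0.599 CPM after TNF, with all TNF values lower, as in 7.82% of tested genes (adjusted p 0.519). Cd44 had 38.9 ± 7.80 and 52.0 ± 14.8 CPM (adjusted p 0.531). Over the 7 pathway lists outside the 8 members, 0 of 35 tested genes passed over all libraries with edgeR. Without TNF replicate 1, 11 of these 35 passed, 9 higher and 2 lower, against 9.1% and 5.4% of all genes. Over all libraries DESeq2 passed 5 of them, all higher, against 1.58% of all genes. With sample weights limma-voom passed 11, 9 higher and 2 lower, against 7.06% and 4.47% of all genes.

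The class I pathway, which presents cytosolic peptides and has its own transactivator, is given for comparison in the same libraries. Of 10 genes, 0 passed over all libraries with edgeR. DESeq2 passed 6, all higher, against 1.58% of all genes. With sample weights limma-voom passed 8, all higher, against 7.06% of all genes. With edgeR, 9 had a fitted value above 0, with a median log2 fold change of 1.26. Psmb8, an immunoproteasome subunit gene, had 8.87, 13.8 and 11.2 CPM after PBS and 12.7, 59.0 and 49.0 CPM after TNF (adjusted p 0.270 with edgeR and 0.0127 with DESeq2). Psmb10 had 25.5 ± 3.54 and 60.2 ± 24.9 CPM (adjusted p 0.270 with edgeR and 0.0315 with DESeq2), and the heavy chain gene H2-D1 214 ± 21.8 and 516 ± 331 CPM (adjusted p 0.344). Without TNF replicate 1, 8 of the 10 class I genes passed, all higher, against 9.1% of all genes, in the fit in which 3 class II members passed lower. The transactivator gene of class I, Nlrc5, named after its values were seen, had 1.48 ± 0.852 and 1.43 ± 0.876 CPM (adjusted p 0.983). Summed class I counts were 3.58, 2.83 and 3.03 times the summed class II counts in PBS and 2.75, 11.8 and 8.55 times in TNF.

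**Figure D3:**
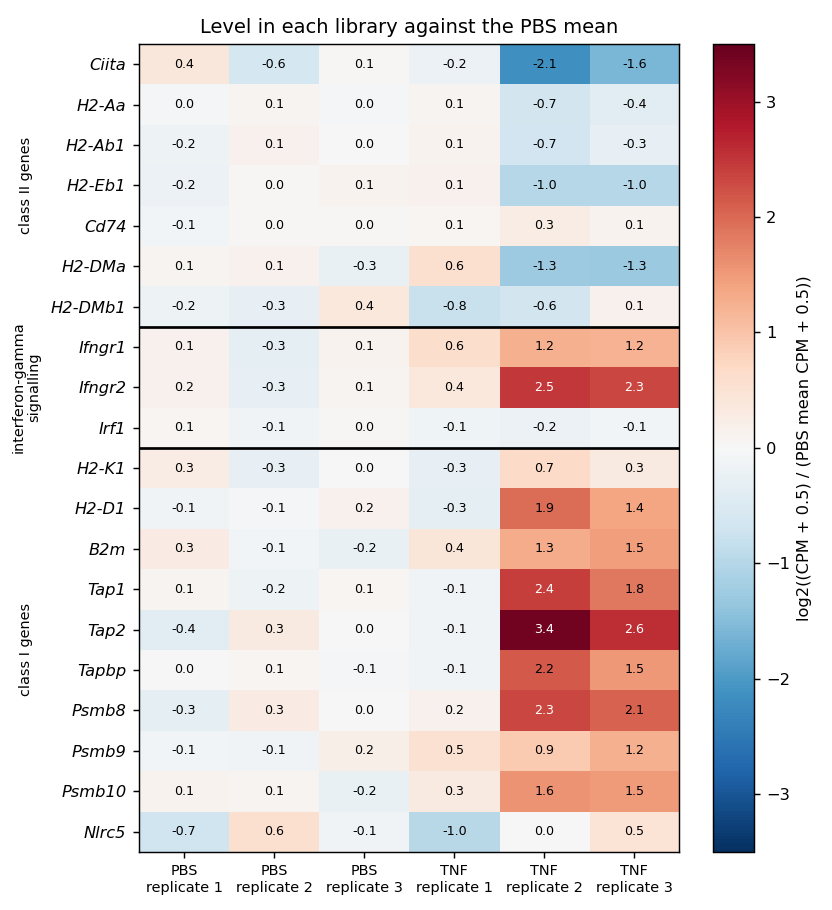
Level of 7 class II genes, 3 genes of interferon-gamma signalling and 10 class I genes in each library (columns), as log2 of CPM over the PBS mean with 0.5 CPM added to both. Blue is lower and red is higher than the PBS mean. TNF replicates 2 and 3 are blue for most class II genes and red for most class I genes and both receptor chains, and TNF replicate 1 is pale for most genes other than H2-DMb1 and Nlrc5.

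Because dendritic cells, macrophages and B cells carry far more class II transcript than epithelium, their markers were examined in the same libraries. Of the 17 immune cell markers listed, the T cell gene Cd3d and the dendritic cell progenitor gene Flt3 were among those with no count in any library. Among the defining markers, the B cell gene Cd79a did not exceed 0.0489 CPM, the dendritic cell gene Itgax 0.170 CPM and the macrophage gene Csf1r 0.196 CPM. Other markers were higher: Cd79b, also of the B cell receptor, had 0.0721 to 1.84 CPM after PBS and 0.510 to 2.34 CPM after TNF, and the macrophage gene Cd68 had 0.649 to 1.61 CPM over the 6 libraries. All 17 markers summed to 22.4 to 57.3 CPM after PBS and 38.7 to 46.2 CPM after TNF. The list without Ptprc and Lyz2 summed to 1.37 to 4.41 CPM after PBS and 2.80 to 4.51 CPM after TNF over 15 genes. The 8 class II genes summed to 181 to 203 and 161 to 208 CPM. Ptprc, the gene of CD45, was an exception at 3.90, 25.0 and 33.9 CPM after PBS and 15.8, 22.7 and 8.86 CPM after TNF. PBS replicate 1 had the lowest Ptprc of all libraries and the lowest class II sum of the PBS libraries. PBS replicates 2 and 3, with more Ptprc, had class II sums of 203 and 202 CPM. Among the TNF libraries, replicate 2 had the most Ptprc and the lowest class II sum, 161 CPM. TNF replicates 1 and 3, with less Ptprc, had class II sums of 208 and 169 CPM. The part of immune cells in the class II levels was not tested. Ptprc is also transcribed by some tuft cells, and the tuft cell marker Dclk1 had 123, 348 and 478 CPM after PBS and 114, 287 and 137 CPM after TNF. Lyz2 is a near copy of the very abundant Lyz1, with which it may share reads.

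**Figure D4:**
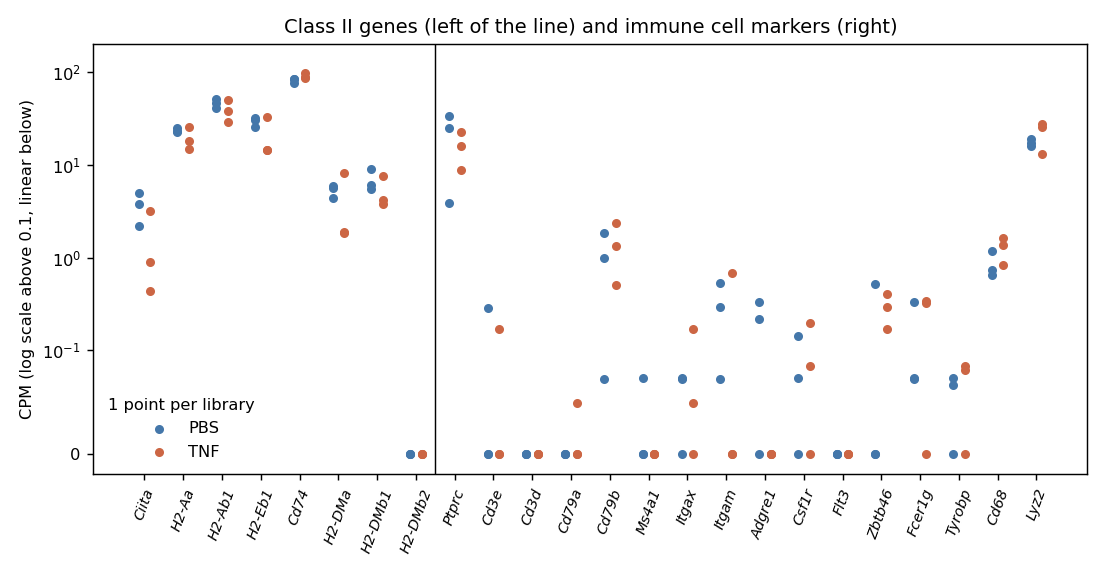
Level of the 8 class II genes (left of the line) and immune cell markers (right) in each library, in CPM on an axis that is logarithmic above 0.1 and linear below. Blue points are PBS and orange points TNF libraries. Ptprc and Lyz2 are the highest markers, Cd79b and Cd68 reach 2.34 and 1.61 CPM, and the others stay below 1 CPM.

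Markers of other crypt cells were summed in the same libraries. Stem cell markers summed to 2599 to 3190 CPM after PBS and to 4747, 935 and 828 CPM in TNF replicates 1 to 3, a sum carried by Olfm4. Without Olfm4 the sum was 675 to 816 CPM after PBS and 860, 702 and 556 CPM after TNF. Of the 7 stem cell markers, 3 (Olfm4, Ascl2 and Smoc2) passed downward without TNF replicate 1, against 5.4% of all genes, while Lgr5 did not, at 66.5 ± 11.6 CPM after PBS and 59.8 ± 15.3 CPM after TNF. Goblet cell markers summed to 4775 to 5067 CPM after PBS and 4830, 3930 and 4169 CPM after TNF, and enterocyte markers to 429 to 532 CPM and 442, 359 and 259 CPM. Downward calls without TNF replicate 1 were not limited to stem cell markers. In that fit 4 of 6 goblet and 5 of 9 enterocyte markers passed lower and 0 higher. Their median log2 fold changes were -1.45 and -2.53, beside -0.78 for stem cell markers. Of the 5 tuft and 6 enteroendocrine markers, 0 passed. Sums follow the most abundant markers and need not show these changes. Tuft cell markers summed to 348 to 1211 CPM after PBS and 362, 787 and 416 CPM after TNF, and enteroendocrine markers to 24.6 to 101 CPM and 60.5, 22.4 and 103 CPM. Goblet and enterocyte sums, like the class II sum, were lower in TNF replicates 2 and 3 than in all other libraries, as was the stem cell sum with Olfm4 but not without it, whereas tuft and enteroendocrine sums were not. PC markers summed to 224389 to 273968 CPM after PBS and 341397, 176503 and 279013 CPM after TNF. The part of these cell types in the class II result was not tested.

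The genes whose pattern over the 6 libraries was most like the mean log2 level of the 7 tested members were, out of 9759 compared (average log2 CPM 2 or more), Svip, Defa28, Amt, Echdc1, Zg16, Cgrrf1, Yipf5, Bet1, Coq9 and Defa-ps18. Their Pearson r was 0.992 to 0.998 over 6 libraries, a description that rests on TNF replicates 2 and 3 lying apart from the other 4, and the relation was not tested. The members did not all share the pattern of their mean. With H2-Aa, H2-Ab1, H2-Eb1, H2-DMa and Ciita, Cd74 correlated at -0.91 to -0.64 and H2-DMb1 at -0.24 to 0.24. Defa28, an alpha-defensin gene whose reads may be shared with its near copies, had 66.2 to 84.4 CPM after PBS and 93.4, 5.63 and 13.6 CPM after TNF. Bet1 and Yipf5, genes of transport between the endoplasmic reticulum and the Golgi, had 66.1 to 80.6 and 84.8 to 97.4 CPM after PBS, beside 67.7, 14.0 and 25.2 CPM and 89.6, 48.5 and 62.2 CPM after TNF.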

How the data were processed

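Sorted PCs of 6 mice gave 1 library each. The deposited table held raw counts per Ensembl gene. The submitters' processing notes name FastQC, Trimmomatic 0.39, STAR 2.7.10a, DESeq2 and the mm39 build, and per the labels reads were single-end. How reads were counted (annotation, strand, multi-mapping) was not given in the sources used here. Symbols, GRCm39 positions and exon lengths came from GENCODE, matched for 54749 of 55414 identifiers. Promoter sequences came from RefSeq (GRCm38.p6).

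Low genes were removed with filterByExpr (at least 10 counts, total of 15), and the rest scaled with TMM factors and tested two-sided with the edgeR 4.0.16 quasi-likelihood test in R 4.3.3, with group as the only term and Benjamini-Hochberg adjustment over all tested genes. SE is the log2 fold change over the square root of F. The threshold was an adjusted p under 0.05. The code was tested on simulated data. A limit for 0 counts uses 3 counts and covers counting error only. Each library came from its own mouse. Within groups no 2 libraries agreed within sampling noise (chi-square per degree of freedom at least 27.7).

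The members and gene lists were chosen with earlier results of these data known. Named are all members and, per other list, the genes past the threshold (at most 5) or the 2 with the smallest p and the 1 with the highest level, the defining immune markers, and the 10 genes most like the members. DESeq2 1.42.0 and limma 3.58.1 were alternatives, beside other scalings and filters, a replicate block and leaving out each library. Values of some listed genes are not reported here.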

Additional observations from a re-analysis of the deposited data

How the results depend on the processing

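The fitted direction of all 7 tested members was kept in each of the 117 values obtained under the 17 other settings, although with a mean CPM of at least 5 only 5 members were tested. The count of 0 genes past the threshold, over all genes and among the members, stayed 0 with RLE factors, library size alone, TMM factors without genes above 1% of counts, a mean CPM of at least 5 and limma-voom. With no low-count filter it became 690 of 23434 genes, with 9 in the pathway lists (Cd40 among them), 7 class I genes and 0 members. DESeq2 gave 242 genes, with 5 in the pathway lists and 0 members, and limma-voom with sample weights gave 1501 genes, with 11 in the pathway lists and 1 member. Leaving out 1 library gave 0 to 1980 genes, 0 to 3 members and 0 to 12 pathway genes (the highest count includes Cd40), each highest without TNF replicate 1 and 0 without any other library. Chosen after the data were seen, the same subset gave 2373 of 13660 genes, 3 members and 13 of 36 pathway genes with DESeq2. With limma-voom it gave 1940 genes, 1 member and 13 pathway genes. Both counts of 13 include Cd40.

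The median of the members ranged from -0.54 (without TNF replicate 1, DESeq2) to -0.15 (without TNF replicate 2). Library size alone moved the median of all genes to -0.11 and that of the members to -0.52, and gave 540 genes higher and 731 lower at an unadjusted p under 0.05, beside 1075 and 521 with TMM factors. The summed difference of -16.0 CPM (TNF minus PBS) became -33.5 CPM with library size alone and, leaving out 1 library, ranged from -7.04 CPM without TNF replicate 2 and -10.9 CPM without TNF replicate 3 to -30.2 CPM without TNF replicate 1. Same-numbered libraries shared only a number, with correlations of their deviations of -0.01, -0.07 and 0.03, and not every library correlated best with its own number. The replicate block left 0 genes and 0 members past the threshold and a member median of -0.44. With 9 to 69 counts per library for Ciita, depth limits how precisely its change can be given.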
